A study of Mus musculus with 2 samples.

Results

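Classical monocytes were read from dissociated lungs of BALB/c mice that carried 4T1 tumours in the mammary fat pad, on day 14 after the tumour cells were placed. 4T1 is a BALB/c mammary carcinoma line that spreads to the lung. One library came from mice given the antibody S100A4-11 and the other from mice given IgG, so every animal bore a tumour and received an antibody. Sex, age, the number of animals in a library and the antibody dose are not given in the sources used here. With 1 library per group no difference could be set against the spread between animals. All intervals below are 95% intervals for counting error only, and no p-value is given.

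Classical monocytes leave the bone marrow through the chemokine receptor CCR2, circulate for a short time, and enter tissue, where they can become macrophages or antigen-presenting cells or, in mice, turn into the nonclassical monocytes that patrol the vessel wall. In 4T1-bearing mice they are among the cells that gather in the lung before and during metastasis. S100A4, the protein that the antibody's name refers to, is a small calcium-binding protein that binds non-muscle myosin in the cell and can act on other cells once released.

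The members were droplets chosen by their transcripts. A member had at least 200 genes, at most 15% mitochondrial UMIs, and a sum of at least 4 UMIs from F13a1, Ccr2, Vcan and Ly6c2 with at least 2 of these 4 genes seen. It also had a UMI of Csf1r or Ms4a6c, at most 2 C1q UMIs, at most 1 of the nonclassical genes Adgre4, Treml4, Cd300e and Eno3, under 1% of its UMIs from S100a8 and S100a9, and no UMI of the 5 lineage genes Flt3, Cdh5, Cd79a, Cd3e and Ncr1. This left 359 cells of 12365 in the S100A4-11 library and 304 of 14285 in the IgG library, 663 of 26650 kept barcodes in all. The 2 sets shared no barcode, although 266 barcodes occurred in both libraries. Members held 3317858 UMIs in the S100A4-11 library and 3185314 in the IgG library, with a median of 8723 and 10218 UMIs per cell. Gm42418, AY036118, Lars2, Cmss1 and Cdk8, transcripts that often collect ribosomal RNA reads, took 6.59% of member UMIs in the S100A4-11 library and 5.12% in the IgG library.

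The label was set against marker genes, some of which the rule itself used. Cd14, the lipopolysaccharide co-receptor and a gene outside the rule, stood at 3177 CPM (counts per 1000000 UMIs of the members) in the S100A4-11 library and 3545 CPM in the IgG library. The dendritic cell genes Xcr1, Clec9a, Cd209a, Zbtb46, Ccr7 and Fscn1 together with Flt3, which the rule held at 0, summed to 13.9 CPM in the S100A4-11 library and 17.0 CPM in the IgG library. The B cell, T cell and NK cell lists of 5 genes each summed to 6.33, 0.603 and 0.603 CPM in the S100A4-11 library and to 3.77, 1.57 and 1.57 CPM in the IgG library. Each of these lists holds 1 gene that the rule held at 0, Cd79a, Cd3e or Ncr1. The 7 alveolar macrophage genes summed to 301 CPM in the S100A4-11 library and 272 CPM in the IgG library, of which Chil3, also on the immature granulocyte list, made up 261 and 228 CPM, and Marco was at 0 in both. The 7 neutrophil genes summed to 716 and 939 CPM, of which S100a8 and S100a9, capped by the rule, made up 258 and 124 CPM in the S100A4-11 library and 478 and 157 CPM in the IgG library.

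The 4 marker genes were not equally dense. Ccr2 was found in 97.5% of S100A4-11 and 98.4% of IgG members, F13a1, the coagulation factor XIII A chain, in 93.6% and 92.8%, Ly6c2, part of the Ly6C surface antigen, in 86.9% and 84.2%, and Vcan, the proteoglycan versican, in 46.5% and 60.2%. All 4 were present in 38.2% of S100A4-11 and 48.4% of IgG members, at median marker sums of 16 and 20 UMIs. At the edge of the rule, cells with a marker sum of 4 to 5 numbered 25 and 16, against 15 and 10 cells just outside it with a sum of 2 to 3. The inside cells held 9488 CPM of Cd74, the class II invariant chain, in the S100A4-11 library and 5665 CPM in the IgG library, and the outside cells 9685 and 11862 CPM.

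Members made up 2.90% (2.61 to 3.21) of kept barcodes in the S100A4-11 library and 2.13% (1.90 to 2.38) in the IgG library, a ratio of 1.36 (1.17 to 1.59). Among barcodes with a UMI of Ptprc, the leukocyte antigen CD45, the shares were 5.07% and 4.07%, a ratio of 1.25 (1.07 to 1.46). Nonclassical monocytes, gated on at least 2 of their 4 genes, had a ratio of 1.16 (1.01 to 1.33) over all kept barcodes. Among barcodes with a Ptprc UMI it was 1.08 (0.937 to 1.25), an interval that held 1. These are shares of captured cells, which also depend on how many other cells each library held: B cells took 11.5% of kept barcodes in the S100A4-11 library and 6.14% in the IgG library.

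**Figure D1:**
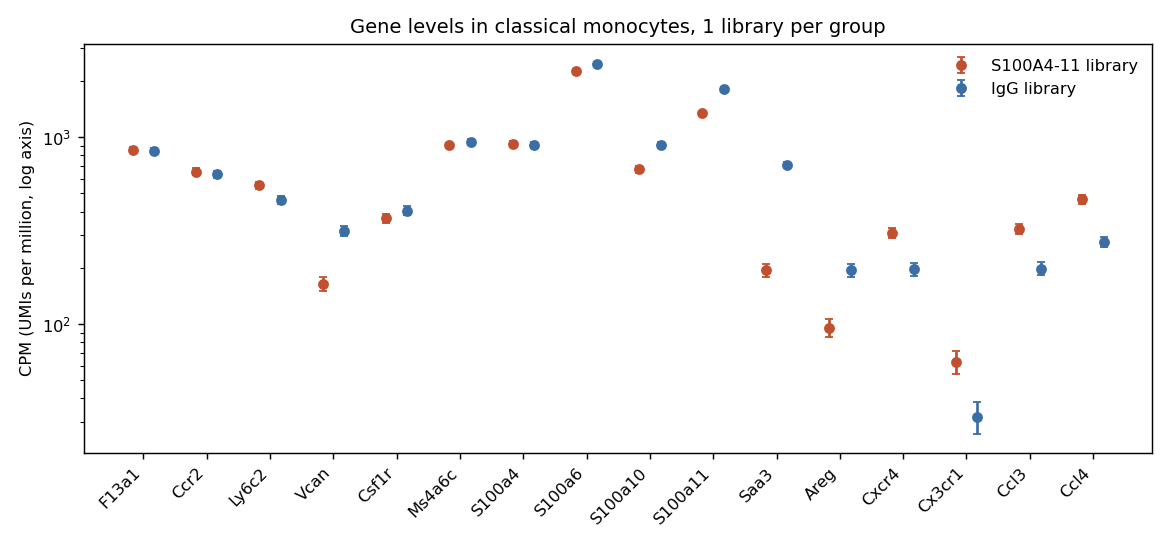
Levels of marker genes, S100 genes and genes that differed, in CPM on a log axis, summed over the 359 S100A4-11 members (left of each pair) and the 304 IgG members (right). Bars are 95% Poisson intervals; S100a4 lay at 923 and 912 CPM, while Saa3 lay at 194 and 710 CPM.

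S100a4 itself did not differ between the libraries beyond counting error. It stood at 923 CPM (890 to 956) in S100A4-11 members and 912 CPM (879 to 946) in IgG members, a ratio of 1.01 (0.961 to 1.06), on chr3:90603771-90606045 of GRCm38, plus strand. A UMI of it was found in 96.9% of S100A4-11 and 96.4% of IgG members, and after every cell was thinned to 2000 UMIs in 78.0% and 75.2%, against 1.75% and 2.47% of B cells thinned the same way. The transcript level does not measure the protein. Of the 6 measured genes on the S100 family list, which does not hold S100a8 and S100a9, genes of the rule, none passed 1.5-fold and 4 had a log2 ratio below 0. Of all 6221 genes with at least 100 UMIs, 1.06% were higher and 1.70% lower past 1.5-fold, and 3720 had a log2 ratio below 0. S100a11, which binds annexin A1, had 1344 CPM in S100A4-11 members and 1818 CPM in IgG members, a ratio of 0.740 (0.711 to 0.769). S100a10, the annexin A2 partner that helps to place plasminogen at the cell surface, had 673 and 905 CPM, a ratio of 0.743 (0.703 to 0.786). S100a6 had 2266 and 2451 CPM, a ratio of 0.924 (0.895 to 0.954). The annexin genes also had ratios below 1, with Anxa2 at 977 and 1203 CPM and Anxa1 at 818 and 1009 CPM, ratios of 0.812 (0.774 to 0.851) and 0.810 (0.770 to 0.853). In nonclassical monocytes S100a11 had 750 CPM in the S100A4-11 library and 1110 CPM in the IgG library, and S100a10 had 281 and 333 CPM. S100a6, at 1201 and 1102 CPM, and S100a4, at 566 and 511 CPM, went the other way there. S100a8 was lower, at 258 CPM in S100A4-11 members and 478 CPM in IgG members, a ratio of 0.539 (0.495 to 0.586), but the rule caps its share of UMIs, and with a cap of 0.3% the log2 ratio was -0.38, short of the fold.

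Of 6221 genes with at least 100 UMIs over both libraries, 66 (1.06%) were at least 1.5-fold higher in S100A4-11 members with an interval that excluded 1, and 106 (1.70%) were at least 1.5-fold lower. The median log2 ratio over these genes was -0.05, and 3720 of the 6221 had a log2 ratio below 0.

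Saa3, an acute phase serum amyloid A made by macrophages as well as by epithelium, was lower in S100A4-11 members. It had 194 CPM (179 to 210) in the S100A4-11 library and 710 CPM (681 to 740) in the IgG library, a ratio of 0.273 (0.250 to 0.298), at chr7:46711998-46715700 on the minus strand. The gap lay more in the number of cells with many copies than in the number of cells with any. A UMI was present in 29.8% of S100A4-11 members and 42.1% of IgG members, while at least 10 UMIs were present in 20 cells (5.57%) and 62 cells (20.4%). The 90th percentile was 7 UMIs per cell in the S100A4-11 library and 21.7 in the IgG library, and the highest cell held 29 and 255 UMIs. After thinning to 2000 UMIs, 17.5% of S100A4-11 and 32.0% of IgG members held a UMI, against 0.228% and 0.988% of thinned B cells. In nonclassical monocytes the ratio was 0.553 (0.449 to 0.678) and in neutrophils 0.669 (0.624 to 0.717), and in B cells, where few cells held a UMI, 0.219 (0.157 to 0.303). Differences between these classes were not tested.

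Mmp19, Vcan, Areg, Fcgr4 and Fkbp5 were also lower in S100A4-11 members. Mmp19, a metalloproteinase that cleaves basement membrane proteins, had 49.4 CPM against 103 CPM in IgG members, a ratio of 0.480 (0.396 to 0.581), and was found in 24.5% and 39.5% of members. Vcan, which helped to choose the members, had 164 and 314 CPM, a ratio of 0.522 (0.469 to 0.580). At least 10 Vcan UMIs were present in 5 S100A4-11 and 30 IgG members. Areg, the epithelial growth factor amphiregulin, had 95.8 and 194 CPM, a ratio of 0.494 (0.430 to 0.566). It came from few cells: 10.3% of S100A4-11 and 14.5% of IgG members held a UMI, and the 5 highest cells held 50.3% and 48.2% of all Areg UMIs. Fcgr4, an activating IgG Fc receptor, had 25 and 45.2 CPM, a ratio of 0.553 (0.417 to 0.730), and Fkbp5, a glucocorticoid-induced immunophilin, had 17.5 and 30.1 CPM, a ratio of 0.580 (0.411 to 0.812). With every cell thinned to 2000 UMIs the log2 ratio of Fkbp5 was -0.52, short of the fold. Over the 15 measured genes of the premetastatic niche and acute phase list (24 genes), 2 were lower (Saa3 and Mmp19) beside 1.70% of all genes, 1 was higher (Plau) beside 1.06%, and the median log2 ratio was -0.12. Thbs1, Fn1 and Plaur, the most abundant of them with Hp, lay at 1291, 925 and 983 CPM in S100A4-11 members and 1400, 849 and 1036 CPM in IgG members. Plau, the urokinase plasminogen activator, had 20.8 and 11.0 CPM, a ratio of 1.89 (1.24 to 2.93), with over 50% of its UMIs in 5 cells of each library.

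**Figure D2:**
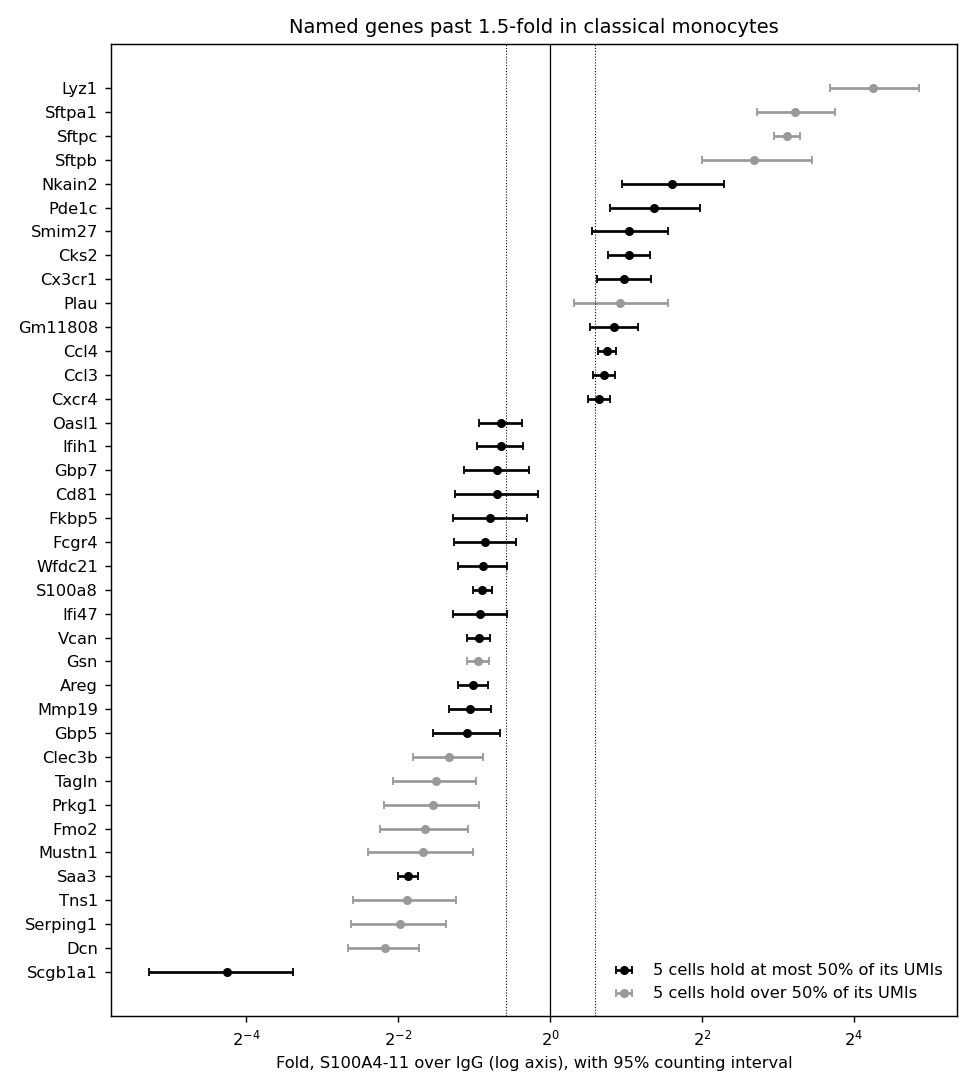
Fold of named genes past 1.5-fold, S100A4-11 over IgG on a log axis, with the 95% counting interval; dotted lines mark 1.5-fold. Grey points are genes for which 5 cells held over 50% of the UMIs in the library with the higher level, among them Sftpc and Dcn; Gzmb, at 0 in IgG members, is not drawn. Saa3 at 0.273 and Scgb1a1 at 0.0523 lie to the left and Cx3cr1 at 1.97 and Cxcr4 at 1.56 to the right.

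Genes of 2 chemokine receptors and 3 chemokines were higher in S100A4-11 members. Cx3cr1, the fractalkine receptor that increases as classical monocytes become nonclassical ones, had 62.4 CPM in S100A4-11 members and 31.7 CPM in IgG members, a ratio of 1.97 (1.54 to 2.52), and was found in 31.5% and 23.7% of cells. Cxcr4, the CXCL12 receptor that holds monocytes in bone marrow, had 306 and 196 CPM, a ratio of 1.56 (1.41 to 1.72), in 78.6% and 73.7% of cells. In nonclassical monocytes the ratios were 1.16 (0.994 to 1.35) for Cx3cr1 and 1.24 (1.14 to 1.35) for Cxcr4. Cxcr4 lay at the edge of the fold, with a log2 ratio of 0.58 without Scrublet doublets and with every cell weighing the same. Of the 15 measured recruitment and adhesion receptors, Cx3cr1 and Cxcr4 were higher beside 1.06% of all genes, and none was lower beside 1.70%. Ccr2, at 653 and 633 CPM, had a ratio of 1.03 (0.970 to 1.10).

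Ccl3 and Ccl4 encode inflammatory CC chemokines. Ccl3 had 324 CPM in S100A4-11 members and 198 CPM in IgG members, a ratio of 1.63 (1.48 to 1.80), and Ccl4 had 464 and 275 CPM, a ratio of 1.68 (1.55 to 1.83). The share of cells with any Ccl4 UMI was close, 32.0% and 29.6%, while cells with at least 10 UMIs numbered 45 (12.5%) and 20 (6.58%). In members with a marker sum of at least 8 from 3 genes neither passed the fold, with log2 ratios of 0.45 for Ccl3 and 0.54 for Ccl4, and with every cell thinned to 2000 UMIs Ccl4 did not, at 0.56. In nonclassical monocytes both ratios lay below 1, at 0.832 (0.762 to 0.908) for Ccl3 and 0.856 (0.798 to 0.917) for Ccl4. Cxcl10, an interferon-induced chemokine, had 32.6 CPM in S100A4-11 members and 20.4 CPM in IgG members, a ratio of 1.60 (1.16 to 2.20). Of the 20 measured genes on the inflammatory cytokine and chemokine list, these 3 were higher beside 1.06% of all genes, Areg was lower beside 1.70%, and 16 had a log2 ratio below 0, as did 3720 of all 6221 genes. Il1b, the main cytokine of these cells by UMIs, had 4832 and 5299 CPM, a ratio of 0.912 (0.892 to 0.932). Cxcl2, a neutrophil-attracting chemokine, had 4519 and 5175 CPM, and Cxcl1, another, had 381 and 544 CPM with a ratio of 0.700 (0.651 to 0.753).

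Interferon-stimulated genes had lower levels in S100A4-11 members across most of the list. Of 30 genes on the type I interferon list, 24 had at least 100 UMIs, and all 24 had a log2 ratio below 0, with a median of -0.40. Of these 24, 7 were lower past the fold, beside 1.70% of all genes: Rsad2, Oasl1, Oasl2, Ifi47, Ifih1, Rtp4 and Herc6. Rsad2 came from few cells, with a 90th percentile of 0 UMIs per cell in both libraries. The list median lay between -0.45 and -0.34 under every alternative that gives one. Ifit1, Ifit2, Ifit3, Ifit3b and Usp18 had too few UMIs, and Mx1 was not found by symbol. Isg15, the ubiquitin-like modifier, had 133 CPM (121 to 146) in the S100A4-11 library and 193 CPM (178 to 209) in the IgG library, a ratio of 0.690 (0.609 to 0.781), and was found in 41.8% and 57.6% of members. Ifi47, an interferon-inducible GTPase, had 31.0 and 58.7 CPM, a ratio of 0.529 (0.412 to 0.676). Oasl1, an oligoadenylate synthetase-like protein that limits Irf7 translation, had 51.8 and 81.3 CPM, a ratio of 0.638 (0.523 to 0.776), and Ifih1, the RNA sensor MDA5, had 45.5 and 71.6 CPM, a ratio of 0.636 (0.514 to 0.784). With S100a8 and S100a9 allowed up to 3% of UMIs neither passed the fold, with log2 ratios of -0.47 for Oasl1 and -0.56 for Ifih1. Ifih1 also fell short at a marker sum of at least 8 from 3 genes, at -0.48. Oasl1 also fell short without Scrublet doublets, at -0.58, and with every cell weighing the same, at -0.57. Without members rich in surfactant or fibroblast transcripts it lay at -0.57 too.

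Of 13 measured genes on the interferon-gamma list, 2 were lower beside 1.70% of all genes, and 12 had a log2 ratio below 0 (median -0.22), as did 3720 of all 6221 genes (median -0.05). Gbp5, a guanylate-binding protein that aids inflammasome assembly, had 19.9 CPM in S100A4-11 members and 42.7 CPM in IgG members, a ratio of 0.466 (0.342 to 0.630), and Gbp7 had 23.2 and 37.7 CPM, a ratio of 0.616 (0.457 to 0.827). With every cell thinned to 2000 UMIs the log2 ratio of Gbp7 was -0.12 and the list median -0.06, and over genes with at least 500 UMIs the list median was -0.09. Of the 23 class I presentation genes none passed the fold, 22 had a log2 ratio below 0 and the median was -0.15. The 17 measured class II presentation genes had a median of 0.07, with none past the fold.

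The type I interferon list was also read in the other classes. In the nonclassical monocytes 6 of its 22 measured genes were lower beside 1.90% of 5990 genes, with a median of -0.39. In neutrophils 7 of 27 were lower beside 10.0% of 7980 genes, with a median of -0.28. In the C1q macrophages none of its 7 measured genes was lower beside 3.96% of 2601 genes, 2 were higher beside 3.50%, and the median was 0.24. B cells had a median of -0.16 over 17 genes. No test of a difference between these classes was made.

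**Figure D3:**
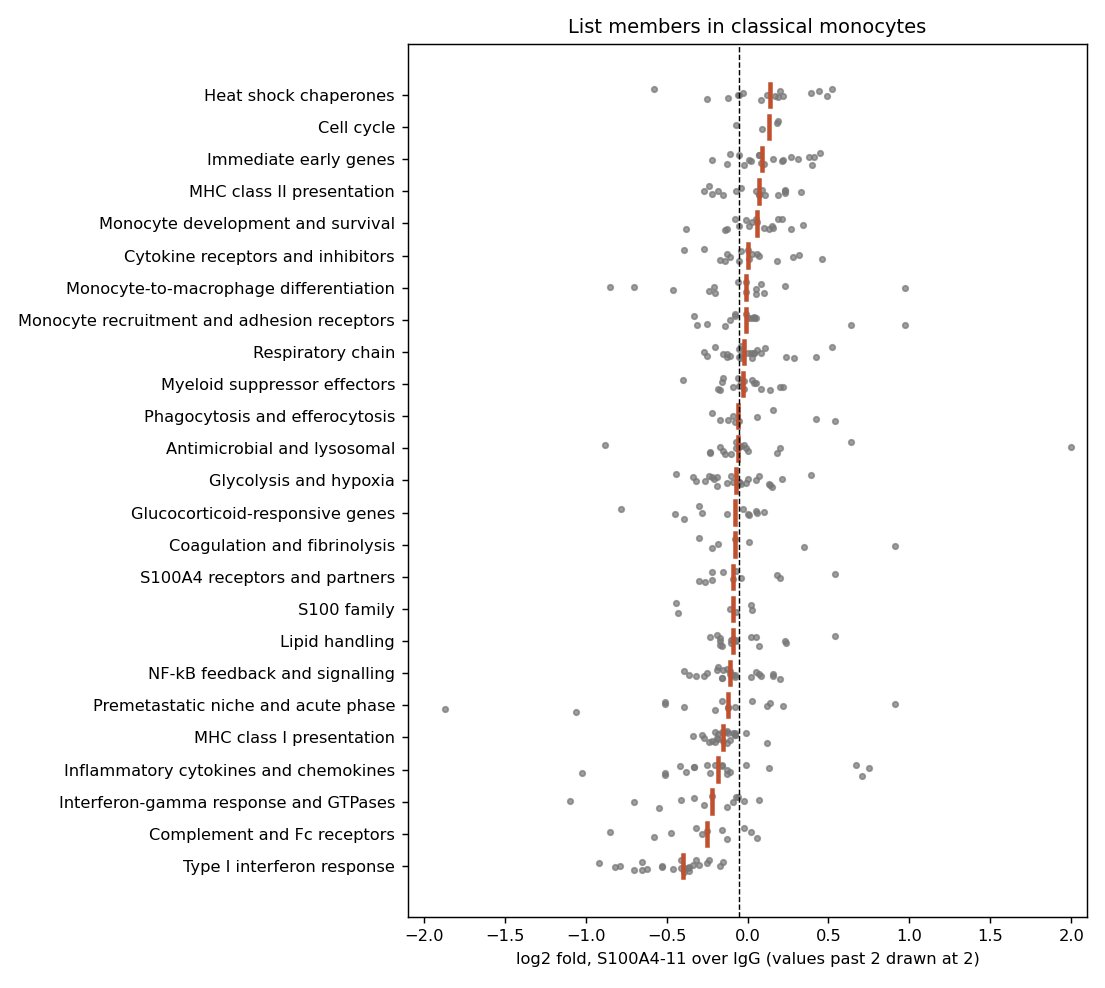
Log2 ratio, S100A4-11 over IgG, of every measured gene on 25 lists in classical monocytes; each grey point is a gene, each red bar the median of a list, and the dashed line the median of all 6221 genes. The type I interferon list lies lowest with a median of -0.40, and heat shock chaperones highest with 0.14.

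Because the interferon genes lay to one side together, their promoters were searched for the interferon-stimulated response element, 2 copies of GAAA with any 2 bases between them, or 2 copies of TTTC so spaced for the other strand; matches could overlap. Windows ran from 250 bases before to 50 after the start site, from RefSeq on GRCm38.p6. Of 32851 such windows 1131 (3.44%) held a match. A window was found for 22 of the 30 type I genes, and 12 of these genes held a match in at least 1 window. The list holds interferon-stimulated genes whichever way the libraries differ, so this share does not bear on that difference. The promoters of 4 genes are shown 5′ to 3′ on the strand of the gene, with matches in capitals. Isg15 was the interferon gene with 3 overlapping matches, and Rsad2, Ifih1 and Gbp5 were past the fold and held 1 each.
Isg15, chr4:156200769-156201068, minus strand: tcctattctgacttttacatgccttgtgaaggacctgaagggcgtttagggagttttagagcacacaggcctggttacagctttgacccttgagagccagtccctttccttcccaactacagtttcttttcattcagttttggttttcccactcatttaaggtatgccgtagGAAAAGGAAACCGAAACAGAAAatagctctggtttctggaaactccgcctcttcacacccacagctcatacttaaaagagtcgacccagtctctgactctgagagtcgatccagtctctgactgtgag
Rsad2, chr12:26456403-26456702, minus strand: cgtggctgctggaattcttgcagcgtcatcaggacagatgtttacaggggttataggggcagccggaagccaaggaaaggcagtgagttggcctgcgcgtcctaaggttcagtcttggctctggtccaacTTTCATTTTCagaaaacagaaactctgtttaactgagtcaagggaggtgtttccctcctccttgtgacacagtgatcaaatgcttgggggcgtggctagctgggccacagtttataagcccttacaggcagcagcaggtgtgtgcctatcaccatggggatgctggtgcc
Ifih1, chr2:62646206-62646505, minus strand: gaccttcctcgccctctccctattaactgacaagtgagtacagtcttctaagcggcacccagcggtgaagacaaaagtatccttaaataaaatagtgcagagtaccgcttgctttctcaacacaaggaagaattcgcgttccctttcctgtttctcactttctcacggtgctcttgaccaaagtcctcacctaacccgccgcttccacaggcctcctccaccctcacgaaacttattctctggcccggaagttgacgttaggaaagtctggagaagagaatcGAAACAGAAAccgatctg
Gbp5, chr3:142496684-142496983, plus strand: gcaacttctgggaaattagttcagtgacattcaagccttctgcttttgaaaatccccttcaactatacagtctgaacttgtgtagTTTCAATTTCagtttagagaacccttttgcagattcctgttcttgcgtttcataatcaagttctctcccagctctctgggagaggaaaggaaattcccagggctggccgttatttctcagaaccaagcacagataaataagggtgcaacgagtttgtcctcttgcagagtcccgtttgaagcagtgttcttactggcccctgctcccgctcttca

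The match lay 120 bases before the start site in Rsad2, between 78 and 66 bases before it in Isg15, 165 bases before it in Gbp5 and 32 bases after it in Ifih1. The windows of Oasl1, Oasl2, Ifi47 and Herc6, also past the fold, held no match to these letters. No window was found for Rtp4, likewise past the fold. A match describes a sequence and is no evidence that a factor bound there.

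None of the 16 measured heat shock genes passed the fold, beside 1.06% of all genes higher and 1.70% lower, and their median was 0.14. Hspa1b and Hspa1a, near-identical inducible HSP70 genes whose reads cannot be told apart with certainty, had 1388 and 1376 CPM in S100A4-11 members and 966 and 1011 CPM in IgG members, ratios of 1.44 (1.37 to 1.5) and 1.36 (1.30 to 1.42). Jun, an AP-1 subunit, had 1052 and 800 CPM, a ratio of 1.32 (1.25 to 1.38), and Atf3, a stress-induced repressor of inflammatory genes, had 1266 and 975 CPM, a ratio of 1.30 (1.24 to 1.36). None of the 20 measured immediate early genes passed the fold. For lists this short, having none past the fold is close to the shares over all genes.

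The myeloid suppressor list had none of 18 measured genes past the fold and a median of -0.03. Ptgs2, the inducible cyclooxygenase, had 551 CPM in S100A4-11 members and 727 CPM in IgG members, a ratio of 0.757 (0.712 to 0.805). Tgfbi had 923 and 1029 CPM, a ratio of 0.896 (0.853 to 0.942), and Vegfa 233 and 200 CPM, a ratio of 1.17 (1.05 to 1.30). The glycolysis (24 measured), respiratory chain (24) and lipid handling (17) lists also had none past the fold, with medians of -0.07, -0.02 and -0.09. The lists of monocyte development (18 measured), NF-kB feedback (23), phagocytosis (10), S100A4 partners (11), cytokine receptors (17) and cell cycle (4) had none either. Over all genes 1.06% were higher and 1.70% lower, so having none in lists this short is close to those shares.

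Some genes past the fold differed the same way in B cells. Gm11808, Pde1c, Nkain2 and Smim27, all higher in S100A4-11 members, had ratios from 1.53 to 2.19 in B cells. With every cell thinned to 2000 UMIs Gm11808 did not pass the fold in members, with a log2 ratio of 0.42. Scgb1a1, the secretory protein of airway club cells, was lower in all classes. It had 3.32 CPM in S100A4-11 members and 63.4 CPM in IgG members, a ratio of 0.0523 (0.0257 to 0.0956), and the ratio in B cells was 0.0242 (0.0148 to 0.0373). Cks2, a cell cycle kinase subunit, was higher here at 106 and 51.8 CPM, a ratio of 2.05 (1.70 to 2.49), with 1.03 (0.895 to 1.18) in nonclassical monocytes.

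Some genes past the fold rested on 1 or a few droplets. Of 2729 Sftpc UMIs in S100A4-11 members, 2565 lay in 1 cell, and that library had 533 UMIs of Lyz1, near-identical to Lyz2, of which 526 lay in 1 cell. Gzmb had 145 UMIs in 2 S100A4-11 members and 0 in IgG members, where a count of 0 allows up to 0.942 CPM. In the IgG library 5 cells held 99.1% of Dcn UMIs, a fibroblast proteoglycan. Members rich in surfactant (at least 20 UMIs) or fibroblast transcripts (at least 10 UMIs) numbered 2 in the S100A4-11 library and 7 in the IgG library. Lower counts were common, with any Sftpc UMI in 122 S100A4-11 and 162 IgG members. Without the 2 and 7 rich members, 69 genes were higher and 86 lower of 6124 tested. Without them Sftpc, Sftpa1, Sftpb, Lyz1 and Gsn changed sign, and without Scrublet doublets Cd81, Clec3b, Mustn1 and Tagln did.

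Members differed among themselves in class II genes. With every cell thinned to 2000 UMIs, the class II list ran over cells with a 10th percentile of 4 and a 90th of 54.2 UMIs in the S100A4-11 library, and with 5 and 51.0 UMIs in the IgG library. The inflammatory cytokine and chemokine list had 6 and 61.2 UMIs in the S100A4-11 library and 4.2 and 67.8 UMIs in the IgG library. H2-Aa, H2-Ab1, H2-Eb1 and Cd74 together took at least 1% of UMIs in 54 of 359 S100A4-11 members (15%, 11.5 to 19.2) and 51 of 304 IgG members (16.8%, 12.8 to 21.5). Cells also lay near the threshold: 39 and 33 cells, 10.9% of each library, lay between 0.5% and 2%. Whether the class II-high members include another cell type was not tested. The threshold was chosen after these data were seen, and the values below describe cells divided on their own transcripts. In both libraries, 53 of 6221 genes (0.852%) were at least 2-fold higher in class II-high members and 97 (1.56%) at least 2-fold lower. Ciita, the class II transactivator, had 79.8 CPM in class II-high and 7.1 CPM in other S100A4-11 members, and 72.1 and 6.74 CPM in IgG members. Itgax, the CD11c integrin of dendritic cells and macrophages, had 53.9 and 9.59 CPM in S100A4-11 members, and 50.6 and 8.98 CPM in IgG members. Cd209a, on the dendritic cell list, had 25.9 and 4.26 CPM (13 and 12 UMIs) in S100A4-11 members. In IgG members it had 40.9 and 3.37 CPM (21 and 9 UMIs). Adgre4, a nonclassical gene of the rule, had 118 and 24.1 CPM in S100A4-11 members, and 89.6 and 19.5 CPM in IgG members. Lower in class II-high members was Fn1, fibronectin, at 89.8 and 1073 CPM in the S100A4-11 library and 99.3 and 993 CPM in the IgG library. Saa3 was also lower in them, at 35.9 and 222 CPM in the S100A4-11 library and 195 and 809 CPM in the IgG library.

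**Figure D4:**
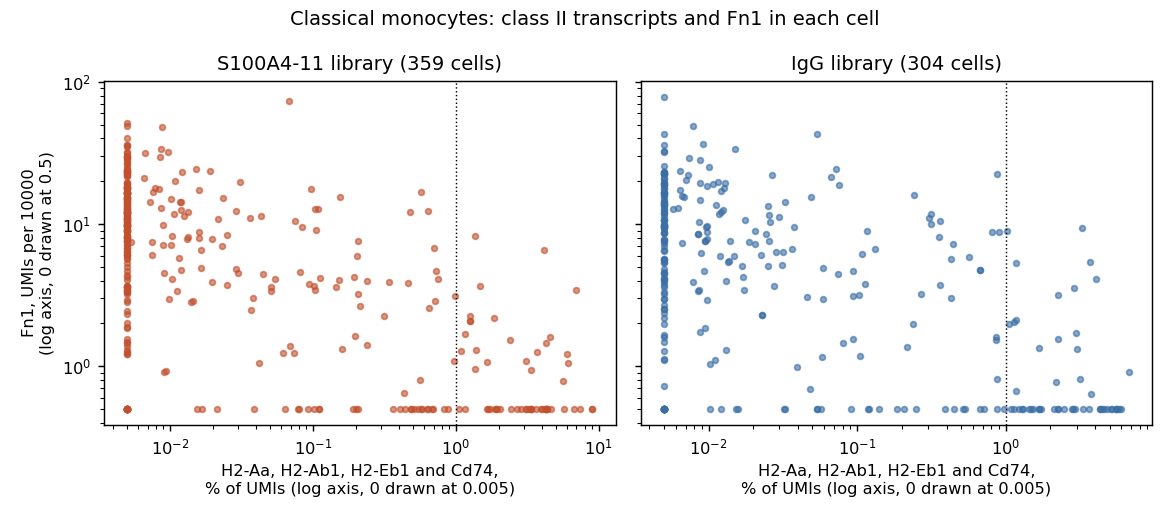
Each point is a classical monocyte, S100A4-11 on the left and IgG on the right, with the class II share of its UMIs (log axis, 0 drawn at 0.005) against Fn1 UMIs per 10000 UMIs (log axis, 0 drawn at 0.5). The dotted line marks the 1% threshold, past which lie 54 and 51 cells; cells left of it hold more Fn1.

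Read within these ranges, several differences between the libraries kept their direction. Saa3 had a ratio of 0.184 (0.105 to 0.306) in class II-high members and 0.275 (0.251 to 0.3) in the others, and Cx3cr1 3.02 (1.79 to 5.30) and 1.73 (1.31 to 2.30). Cxcr4 had 1.68 (1.31 to 2.16) and 1.54 (1.38 to 1.72). Ccl3 had 3.85 (2.95 to 5.08) in class II-high members and 1.36 (1.22 to 1.52) in the others. Areg had 0.145 (0.0901 to 0.222) in class II-high members and 0.623 (0.536 to 0.723) in the others. The Vcan ratio was 0.969 (0.592 to 1.58) in class II-high members, where the interval held 1, and 0.501 (0.449 to 0.558) in the others. Cxcl1 and Ly6c2 had ratios on opposite sides of 1. Cxcl1 had 1.56 (1.34 to 1.81) in class II-high members and 0.539 (0.494 to 0.588) in the others. Ly6c2 had 0.695 (0.569 to 0.847) in class II-high members and 1.30 (1.20 to 1.40) in the others. Rsad2, at 5.98 CPM in S100A4-11 and 66.2 CPM in IgG class II-high members, had a ratio of 0.0903 (0.0178 to 0.287) there and 0.990 (0.647 to 1.52) in the others. Those 51 IgG cells held 34 of its 80 IgG UMIs. Over all members, at least 10 Rsad2 UMIs lay in 3 S100A4-11 cells (highest 13) and 2 IgG cells (highest 21). The interval does not cover such clustering in a few cells. No test of a difference between these ranges was made.

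Across single members thinned to 2000 UMIs, the share of class II genes ran against that of the S100 family (Spearman -0.38 over 359 S100A4-11 cells and -0.23 over 303 IgG cells), and of the premetastatic list (-0.35 and -0.26). It ran with the macrophage differentiation list (0.30 and 0.28). These cells share a library and a depth, so the values are descriptions.

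Set against nonclassical monocytes (403 cells in the S100A4-11 library and 402 in the IgG library), 106 of 7945 genes (1.33%) were at least 2-fold higher in classical monocytes in both libraries and 298 (3.75%) at least 2-fold lower. The rule chose both classes, so these values describe them. Higher were Lbp, the lipopolysaccharide-binding protein, by 14.0-fold in the S100A4-11 library and 11.7-fold in the IgG library, and Fn1 by 4.45-fold and 6.45-fold. Prtn3, the granule proteinase 3, stood at 96.1 CPM in classical and 9.22 CPM in nonclassical cells of the S100A4-11 library, and at 106 and 9.73 CPM in the IgG library. Fabp4, a fatty acid carrier, had 4.82 CPM in classical and 270 CPM in nonclassical cells of the S100A4-11 library, and 11.3 and 217 CPM in the IgG library. S1pr5, a receptor that lets patrolling monocytes leave the bone marrow, had 1.51 and 41.9 CPM in the S100A4-11 library, and 0 and 49.0 CPM in the IgG library. Of 17 genes of the premetastatic list 8 were higher in classical cells (Saa3, Mmp8, Mmp19, Thbs1, Fn1, Adam8, Lcn2 and Hp). Of 17 macrophage differentiation genes 7 were lower, and of 20 lipid genes 6. S100a4 was 1.63-fold and 1.78-fold above nonclassical cells, and S100a10 was 2.40-fold and 2.72-fold above them.

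**Figure D5:**
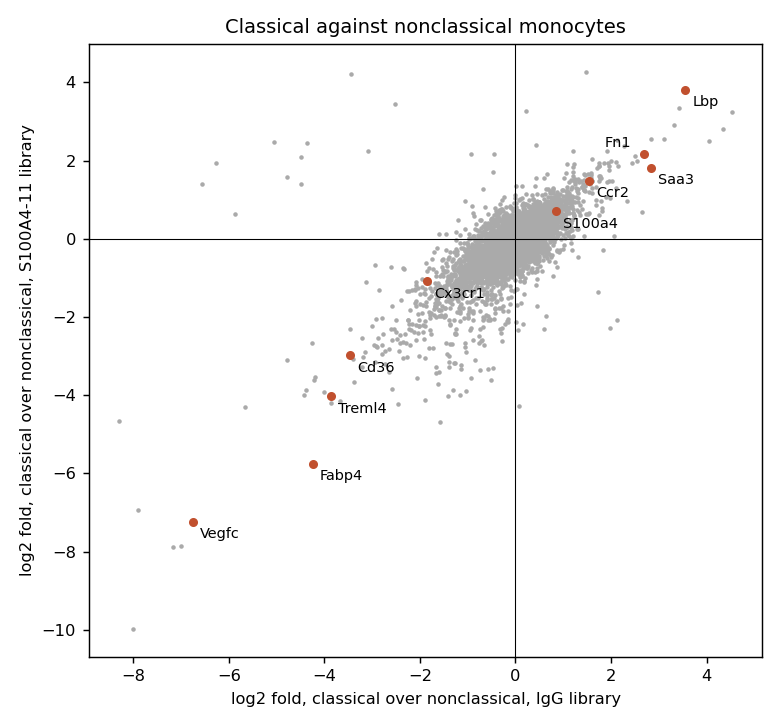
Log2 fold of classical over nonclassical monocytes for each of 7945 genes, in the S100A4-11 library (vertical) and the IgG library (horizontal). Named genes are in red: Lbp and Fn1 lie up and to the right, and Fabp4, Vegfc and Treml4 down and to the left in both libraries.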

How the data were processed

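The deposited files are 10x Genomics matrices of whole UMI counts, 1 per library, per the file headers. Per the labels' protocols, libraries were made with a 5' kit and read by DNBseq; that text speaks of tumour tissue, while the other labels give lung. Reads were processed with Cell Ranger 7.1.0 on mm10, per the submitters' processing notes. Members were gated on raw counts, with 32286 features, and doublets were kept except in an alternative (Scrublet in scanpy 1.11.5, which marked 3 S100A4-11 and 9 IgG members). UMIs were summed over members per library and given as CPM, with exact Poisson intervals. Ratios have exact conditional binomial intervals, computed with scipy 1.17.1. These were tried on simulated Poisson counts, the model they assume, so the trial does not cover UMIs clustered in a few cells. A gene was past the fold at a ratio of at least 1.5 or its inverse, with an interval excluding 1 and at least 100 UMIs in all. Log2 ratios use a pseudocount of 0.5. Named genes were the gate genes and S100a4, and the 15 highest and 15 lowest by the interval bound nearest 1. From each list came the 4 with the bound farthest from 1 and the 2 with most UMIs. For classical against nonclassical monocytes the 12 largest folds each way were named. The 15 each way were ranked without genes under 20% of their level in another gated class. Genes of globins, ribosomal proteins, mitochondria and variable segments of antigen receptors were also left out of that ranking. Among these were Hbb-bs and Hba-a1, globin genes higher past the fold. They had 288 and 83.8 CPM in S100A4-11 members and 89.8 and 33.9 CPM in IgG members. Other list members, genes of the class II ranges and Rsad2 were named after their values were seen. Members and lists were chosen with earlier results of these data known. Positions come from GENCODE M21 (GRCm38). Alternatives used edgeR 4.0.16 TMM scaling, among others. A few named genes are not reported here.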

Additional observations from a re-analysis of the deposited data

Results flagged for a closer look

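These genes differed in opposite directions between classical monocytes and another class of the same 2 libraries. The differences between classes were not tested. Lyz1 had a log2 ratio of 4.22 in classical monocytes, with 526 of 533 S100A4-11 UMIs in 1 cell, while its ratio was 0.294 in nonclassical monocytes, 0.0783 in neutrophils and 0.591 in C1q macrophages. Sftpc, surfactant protein C, had a log2 ratio of 3.11, against ratios of 0.0899 in nonclassical monocytes, 0.350 in neutrophils and 0.417 in C1q macrophages. In nonclassical monocytes of the IgG library 5511 of 6124 Sftpc UMIs lay in 1 cell. Sftpa1 had a log2 ratio of 3.20 and Sftpb of 2.66, against ratios of 0.0496 and 0.0554 in nonclassical monocytes and 0.387 and 0.421 in neutrophils. Of S100A4-11 member UMIs, 1 cell held 96.9% for Sftpa1 and 96.3% for Sftpb.

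Saa3 had a log2 ratio of -1.87 in classical monocytes and was higher in S100A4-11 C1q macrophages, with 320 UMIs in 2 of 86 cells and 0 UMIs in 108 IgG cells. Oasl1 had a log2 ratio of -0.65 in classical monocytes and a ratio of 3.02 (2.02 to 4.59) in C1q macrophages, where 1 cell held 41 of the 84 S100A4-11 UMIs.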

How the results depend on the processing

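Over 18 alternatives, 3 of them chosen after seeing the data, 76 counts and shares stayed within their limits and 11 moved. With every cell thinned to 2000 UMIs, 32 genes were higher and 35 lower, of which 4 and 7 were list genes. Without a filter on counts, 222 were higher and 507 lower, with 32 list genes lower. With at least 500 UMIs, 11 were higher and 8 lower, of which 5 and 2 were list genes. These alternatives test other numbers of genes, 2024, 17104 and 1972 against 6221. The share ratio lay between 1.25 and 1.41. Of the named gene values 2232 stayed, 139 moved and 13 reversed. Without Scrublet doublets the log2 ratio was 0.19 for Cd81, 0.33 for Clec3b, 0.53 for Mustn1 and 1.59 for Tagln. At a marker sum of at least 8 with 3 genes it was -1.6 for Lyz1, -1.74 for Sftpa1, -1.77 for Sftpb and -0.97 for Sftpc. Without members rich in surfactant or fibroblast transcripts, it was 0.15 for Gsn, -1.86 for Lyz1, -1.5 for Sftpa1, -1.16 for Sftpb and -0.77 for Sftpc. In these genes a few cells held most UMIs. Over the alternatives that give expression values the log2 ratio of Saa3 ran from -1.90 to -1.69, of Cx3cr1 from 0.86 to 1.37, of Cxcr4 from 0.58 to 0.70 and of Gbp5 from -1.2 to -1.0. No paired analysis was possible because each group has 1 library. With about 300 cells per library, genes under 100 UMIs could not be read.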

Other observations

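Among lists not described above, the complement and Fc receptor genes had a median log2 ratio of -0.25 over 11 measured genes. Fcgr4 alone passed the fold, lower, beside 1.70% of all genes. Cfp, properdin, which stabilises the alternative pathway convertase, had 57.3 CPM in S100A4-11 members and 79.4 CPM in IgG members, a ratio of 0.721 (0.594 to 0.874), and Cfb, factor B of the same pathway, had 37.7 and 56.5 CPM, a ratio of 0.667 (0.526 to 0.842). Fcgr2b, the inhibitory Fc receptor, had 303 and 368 CPM, a ratio of 0.823 (0.755 to 0.896). Il31ra, a cytokine receptor chain, had 2031 and 1473 CPM, a ratio of 1.38 (1.33 to 1.43). Of the 7 measured coagulation genes Plau alone passed the fold, higher, beside 1.06% of all genes. Thbd, thrombomodulin, had 154 and 121 CPM, a ratio of 1.27 (1.11 to 1.45).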
